A study of Mus musculus with 2 samples.

Results

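Reelin and its core receptor pathway were followed across the cells of the embryonic mouse cortex through 4 genes: the ligand *Reln*, the receptors *Vldlr* and *Lrp8* and the adaptor *Dab1*. The 4 members were taken by gene symbol from the 32285 genes counted, and each symbol matched 1 gene. Single-cell RNA sequencing had been carried out on the dissociated cerebral cortex of control embryos at embryonic day (E) 16.5 with the 10x Genomics 3′ kit, and both libraries, replicates 1 and 2, belong to the WT group. The embryos come from the EomesDot line, an *Eomes-Cre* mouse line, and were harvested as its controls. The labels name no allele beyond WT, and do not say whether a library holds 1 embryo or several. No treated or mutant embryos were part of the series, and every comparison lies between cell classes of the same libraries (n = 2). A p-value sets the difference between classes against the spread left between the libraries, pooled over the classes of the fit. That spread may be technical.

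Reelin is a large glycoprotein secreted into the extracellular matrix, best known from the *reeler* mouse, in which cortical neurons fail to settle in their normal layers. In the embryonic cortex it comes chiefly from Cajal-Retzius cells in the marginal zone at the brain surface, and later also from GABAergic interneurons. It binds the lipoprotein receptors VLDLR and ApoER2, the product of *Lrp8*, on migrating neurons. Their cytoplasmic tails hold DAB1, which Src family kinases phosphorylate, so that the signal reaches adhesion molecules and the cytoskeleton before DAB1 is degraded.

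On GRCm38.p6 (RefSeq), *Reln* (ENSMUSG00000042453) lies on chr5:21884454-22344705 and spans 460.3 kb. *Vldlr* (ENSMUSG00000024924) lies on chr19:27216480-27254231, *Lrp8* (ENSMUSG00000028613) on chr4:107802200-107876840, and *Dab1* (ENSMUSG00000028519) on chr4:103619500-104744844, where it spans 1125.3 kb. The 250 bases before the start of *Reln*, and before 2 RefSeq starts of *Dab1*, are shown 5′ to 3′ because the ligand and the adaptor were the members with the widest range of levels over cell classes. Capitals mark each CG dinucleotide (CpG), the site of DNA methylation in mammals.
*Reln* (chr5:22344706-22344955, minus strand): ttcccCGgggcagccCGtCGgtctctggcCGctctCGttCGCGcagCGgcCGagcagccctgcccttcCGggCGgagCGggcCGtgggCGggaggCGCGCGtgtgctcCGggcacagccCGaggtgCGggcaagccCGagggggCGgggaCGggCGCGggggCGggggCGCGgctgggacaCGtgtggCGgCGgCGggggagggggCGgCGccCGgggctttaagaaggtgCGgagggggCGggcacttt
*Dab1* outer start (chr4:103619250-103619499, plus strand): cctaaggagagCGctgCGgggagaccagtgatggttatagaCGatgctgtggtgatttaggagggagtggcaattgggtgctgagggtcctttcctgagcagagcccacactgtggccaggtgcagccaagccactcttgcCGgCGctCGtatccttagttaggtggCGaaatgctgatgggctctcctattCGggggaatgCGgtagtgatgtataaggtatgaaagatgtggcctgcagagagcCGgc
*Dab1* inner start (chr4:104367288-104367537, plus strand): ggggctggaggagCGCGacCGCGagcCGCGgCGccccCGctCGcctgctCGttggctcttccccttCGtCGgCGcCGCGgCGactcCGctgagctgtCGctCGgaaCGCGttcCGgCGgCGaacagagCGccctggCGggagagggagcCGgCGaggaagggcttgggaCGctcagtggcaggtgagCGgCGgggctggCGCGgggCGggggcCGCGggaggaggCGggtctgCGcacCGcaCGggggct
The *Reln* sequence holds 37 CpG, a number reached by 2.20% of 32851 RefSeq promoters of the same length, whose median is 6. The inner *Dab1* start holds 40 CpG, which 1.31% of these promoters reach, and the outer start 10, which 37.8% reach. CG reads the same on both strands, and 92.1% of the promoters hold at least 1. Counts from 3′ ends do not tell which start a transcript used, and DNA methylation was not measured in these libraries.

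Filtering and doublet removal left 5534 cells in replicate 1 and 9136 in replicate 2, whose median depth was 5493 and 4728 UMIs (unique molecular identifiers, 1 per captured RNA molecule). The libraries shared 40 barcodes, of which 21 passed the filters in both. The cells fell into 26 clusters made without the genes of the pathway, and clusters were named X-like from marker genes. Unnamed clusters took 29.9% and 29.6% of the cells. Although the labelled tissue is cerebral cortex, striatal projection neuron-like cells made up 6.63% and 6.41% of the cells of replicates 1 and 2, and GABAergic progenitor-like cells 5.04% and 5.69%. Levels are given as CPM, counts per 1000000 UMIs, taken over all cells of a class in 1 library. CPM values were not compared between genes. Over all cells that passed the filters, doublets included, *Reln* was at 56.6 CPM in replicate 1 and at 62.8 in replicate 2, *Vldlr* at 28.0 and 28.8, *Lrp8* at 125 and 119, and *Dab1* at 670 and 669.

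*Reln* was concentrated in Cajal-Retzius-like cells and, at a far lower level, in an unnamed cluster led by *Snhg11*, *Hap1* and *Zic4* (188 and 370 CPM) and in interneurons that are born in the medial and caudal ganglionic eminences (MGE and CGE) and migrate into the cortex. Cajal-Retzius-like cells were taken by a gate that used no member of the pathway: at least 1 UMI of *Trp73*, a transcription factor of these cells, at least 1 UMI of *Lhx1*, *Lhx5*, *Ebf2*, *Ebf3* or *Nhlh2*, and no UMI of the GABA-synthesis genes *Gad1* and *Gad2*. The gate held 20 cells of replicate 1 and 30 of replicate 2. Of the markers it did not use, *Ndnf* was at 981 and 1176 CPM in these cells against 5.94 and 7.79 CPM in MGE-like interneurons, and *Cacna2d2* at 624 and 569 CPM against 33.1 and 47.3 CPM. *Lhx6*, a defining factor of MGE interneurons, had no UMI in the gated cells of replicate 1 and was at 3.55 CPM in those of replicate 2.

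In Cajal-Retzius-like cells *Reln* was at 5013 CPM in replicate 1 and 5843 CPM in replicate 2. It was at 165 and 159 CPM in MGE-like interneurons and at 147 and 122 CPM in CGE-like interneurons. At a mitochondrial limit of 5% in place of 10%, MGE-like interneurons were at 59.3 and 154 CPM and CGE-like interneurons at 136 and 114 CPM, so their order is not firm. The highest value in any other named class of the fit was 32.1 CPM, so these 3 classes stood apart from the other named classes without overlap. The unnamed cluster led by *Snhg11* was above both interneuron classes in either library, and held 206 and 396 *Reln* UMIs against 117 and 148 in CGE-like interneurons. Of the cells kept after doublet removal, the gated cells were 0.361% and 0.328%, and they held 41.2% and 51.6% of the *Reln* UMIs of those cells. MGE-like interneurons held 21.9% and 17.3%, CGE-like interneurons 6.60% and 4.64%, and the unnamed clusters 18.0% and 19.8%. Fewer cells of a class and less RNA per cell cannot be told apart in such shares of a library.

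Below these 3, the *Reln* levels of the named classes were resolved in part. Striatal projection neuron-like cells were at 32.1 CPM in replicate 1 and 7.02 CPM in replicate 2, deep-layer-like neurons at 21.9 and 17.0 CPM, and erythroid-like cells at 15.2 and 20.9 CPM, with overlapping ranges between neighbours. Red blood cells are not known as a reelin source, and their level lay within that range. Migrating neuron-like cells, young excitatory neurons on their way from the germinal zones to the cortical plate, were at 11.5 and 8.87 CPM, below the deep-layer-like and erythroid-like cells without overlap. Radial glial cell (RGC)-like cells, the stem cells of the cortex, were at 4.86 and 8.53 CPM, and intermediate progenitor cell (IPC)-like cells, their neurogenic daughters, at 9.18 and 5.44 CPM, and the ranges of both overlapped. Upper-layer-like neurons, at 2.82 and 4.50 CPM, were below all of these.

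**Figure D1:**
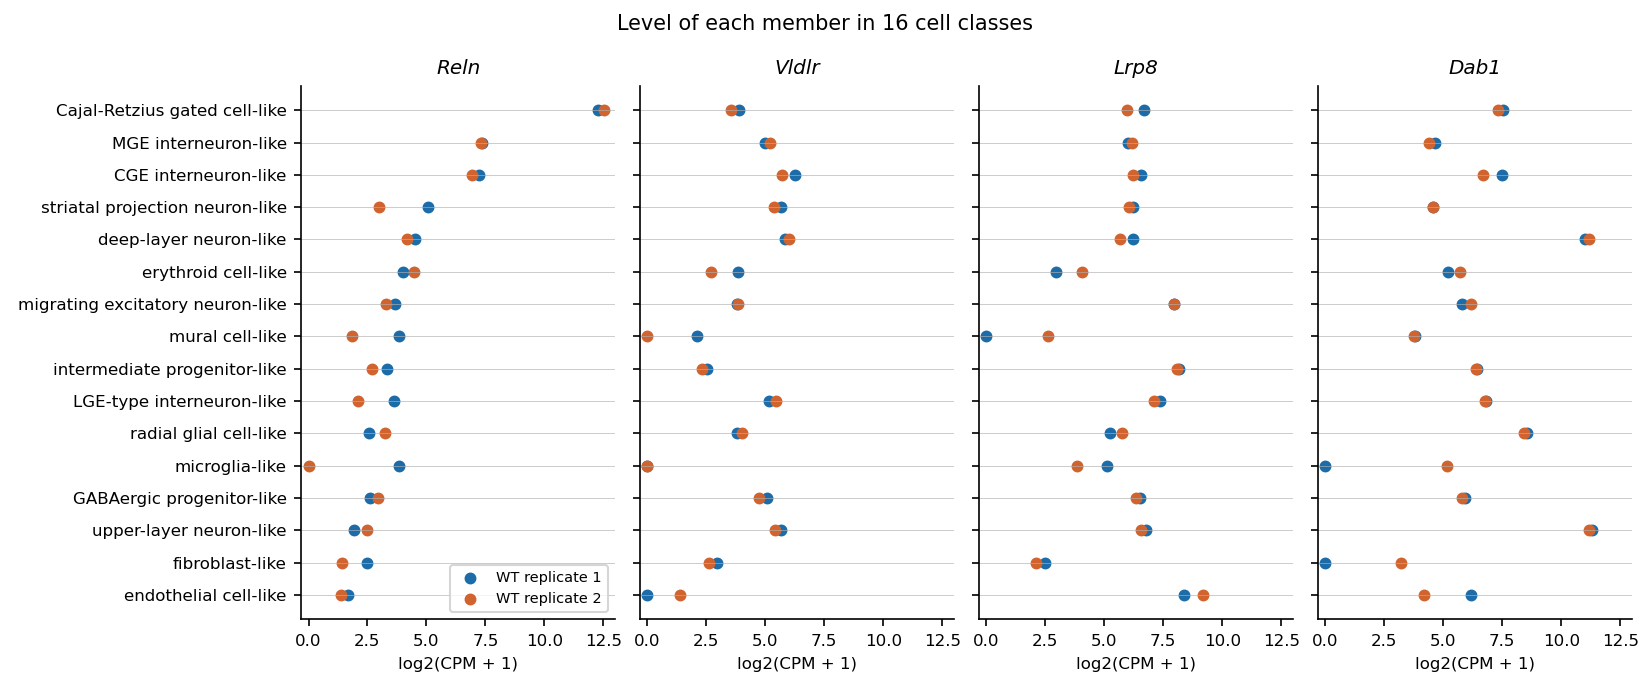
Level of *Reln*, *Vldlr*, *Lrp8* and *Dab1*, as log2(CPM + 1), in the 16 named cell classes of the fit. Each point is 1 library (blue, WT replicate 1, and orange, WT replicate 2), and classes are ordered by their mean *Reln* level. Cajal-Retzius-like cells stand alone for *Reln*, upper-layer-like and deep-layer-like neurons for *Dab1*, and endothelial-like, intermediate progenitor-like and migrating neuron-like cells are highest for *Lrp8*.

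Cell by cell, *Reln* was found in nearly every gated cell, and in a minority of interneurons. In replicate 1 a *Reln* UMI was detected in 95% of the gated cells (95% exact binomial interval 75.1 to 99.9%) and in replicate 2 in 100% (88.4 to 100%). These intervals cover counting error only. Gated cells held a median of 15.5 and 51 *Reln* UMIs, with a maximum of 161 and 206. Their depth differed between the libraries as well, with a median of 4883 and 9111 UMIs of all genes. In RGC-like cells, which are no known reelin source, 3.36% and 3.97% of the cells held a *Reln* UMI at a median depth of 7256 and 4861 UMIs, and at most 3 UMIs were seen in a cell. The RGC-like cluster scored 3.67 on the radial glial and 2.92 on the astrocyte list, with *Aldoc* and *Aldh1l1* among its leading genes. How many astrocyte-like cells it holds was not tested.

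MGE-like interneurons fell into a *Reln*-rich and a *Reln*-poor cluster, although the clustering had not used *Reln*. The rich cluster, led by *Dgkg*, *Nxph2* and *Ptchd4*, was at 347 CPM in replicate 1 and 282 CPM in replicate 2. The poor cluster, led by *Sfta3-ps*, *Nxph1*, *Cntnap5c* and *Ackr3*, was at 17.0 and 11.4 CPM. A *Reln* UMI was held by 27.8% of the cells of the rich cluster in replicate 1 (95% exact binomial interval 23.2 to 32.9%) and by 26.7% in replicate 2 (23 to 30.7%). In the poor cluster, 5.47% (3.22 to 8.61%) and 3.72% (2.1 to 6.06%) of the cells held a *Reln* UMI. The latter shares lay near those of RGC-like cells, although the depth was lower, with a median of 3550 and 3833 UMIs. By CPM the poor cluster, at 17.0 and 11.4, was above RGC-like cells, at 4.86 and 8.53, without overlap, but its range overlapped with that of erythroid-like cells, at 15.2 and 20.9 CPM. Its value rests on 22 and 18 UMIs, and how much of it is background was not tested. In CGE-like interneurons 23.7% and 19.1% of the cells held one. At least 10 *Reln* UMIs were found in 2.03% and 2.24% of the cells of the rich MGE-like cluster, against 65.0% and 80.0% of the gated cells.

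**Figure D2:**
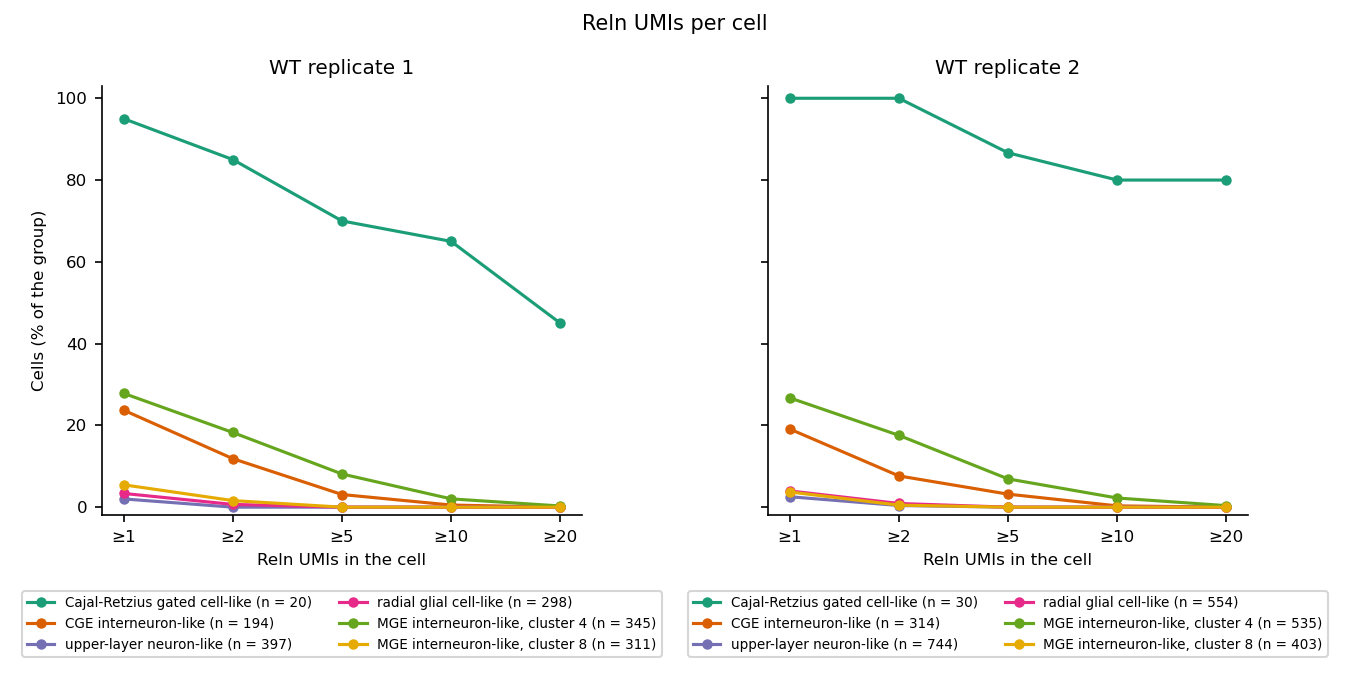
Share of cells (%) with at least 1, 2, 5, 10 or 20 *Reln* UMIs in each group of cells, with 1 panel for each WT library and the number of cells in the key. In Cajal-Retzius-like cells the share with at least 20 UMIs was 45.0% in replicate 1 and 80.0% in replicate 2, while in the *Reln*-rich MGE-like cluster (cluster 4) it was 0.290% and 0.374%, and in the other groups 0.

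Cells near the limits of the gate had uneven *Reln* levels. The 12 gated cells with a single *Trp73* UMI were at 3691 CPM over both libraries, against 5560 CPM over all 50 gated cells, and the 3 gated cells with only 1 further factor were at 1086 CPM. Outside the gate, 3 cells that met it but for a *Gad* UMI were at 3866 CPM, and 28 cells with no *Trp73* UMI and at least 2 further factors were at 507 CPM. By contrast, 22 cells with *Trp73* but no further factor were at 17.2 CPM. Among the unnamed clusters, the one led by *Snhg11*, *Hap1* and *Zic4*, with 378 cells once gated cells were taken out, was at 188 CPM in replicate 1 and 370 CPM in replicate 2. Of all marker lists it scored highest for Cajal-Retzius cells, but did not meet the rule for a name. A cluster led by *Tfap2d*, *Pex5l* and *Nrp2* was at 38.9 and 116 CPM.

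The receptor gene *Vldlr* was higher in interneurons and cortical plate neurons than in cortical progenitors. CGE-like interneurons were at 74.3 (replicate 1) and 50.4 CPM (replicate 2), and deep-layer-like neurons at 55.1 and 63.3 CPM, with overlapping ranges. Upper-layer-like neurons followed at 49.0 and 41.3 CPM and striatal projection neuron-like cells at 49.5 and 40.2 CPM. MGE-like interneurons were at 30.6 and 36.1 CPM, and the ranges of neighbours from upper-layer-like neurons down to GABAergic progenitor-like cells overlapped. RGC-like cells, at 12.96 and 14.9 CPM, migrating neuron-like cells, at 12.7 and 13.3 CPM, and Cajal-Retzius-like cells, at 13.7 and 10.7 CPM, could not be ordered. The last of these values rests on 2 and 3 UMIs. IPC-like cells were lower, at 4.78 and 4.01 CPM.

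The other receptor gene, *Lrp8*, had a different distribution, with its highest neural levels in IPC-like and migrating neuron-like cells. IPC-like cells were at 287 (replicate 1) and 269 CPM (replicate 2), and migrating neuron-like cells at 247 and 246 CPM. Endothelial-like cells were higher still, at 334 and 575 CPM, and 83.3% of them held an *Lrp8* UMI in each library. LGE-type interneuron-like cells, named for the lateral ganglionic eminence, were at 164 and 137 CPM, and upper-layer-like neurons at 107 and 91.6 CPM. CGE-like interneurons, Cajal-Retzius-like cells, MGE-like interneurons and deep-layer-like neurons lay between 50.1 and 102.9 CPM, and neighbours among them overlapped. RGC-like cells were at 36.8 and 52.4 CPM, below all of these but for an overlap with deep-layer-like neurons. In mural-like cells and fibroblast-like cells, which share the vessel wall and the meninges with endothelial cells, *Lrp8* did not pass 5.07 CPM.

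Among the named classes, the adaptor gene *Dab1* was highest in the neurons of the cortical plate. It was at 2563 CPM in replicate 1 and 2295 CPM in replicate 2 in upper-layer-like neurons, where 99.5% and 99.6% of the cells held a UMI. It was at 2073 and 2283 CPM in deep-layer-like neurons, so that the ranges of the 2 classes did not overlap. At a mitochondrial limit of 5% they did, at 1848 and 2263 CPM in deep-layer-like and 2008 and 1991 CPM in upper-layer-like neurons. Of the named classes, RGC-like cells came next at 368 and 343 CPM, and Cajal-Retzius-like cells at 185 and 156 CPM overlapped with CGE-like interneurons at 176 and 101 CPM. IPC-like cells were at 84.5 and 81.9 CPM and migrating neuron-like cells at 54.9 and 71.7 CPM. Striatal projection neuron-like cells, at 22.5 and 22.6 CPM, and MGE-like interneurons, at 23.8 and 20.2 CPM, were the lowest neuronal classes with these filters. They lay below erythroid-like cells, at 35.4 and 51.9 CPM, and how much of their *Dab1* is background was not tested. The striatal level depended on the filters: it was 63.8 and 103.5 CPM at a mitochondrial limit of 5%, above migrating neuron-like cells at 51.4 and 50.3 CPM, and 86.9 and 132.6 CPM with doublets kept. The unnamed clusters together held 41.9% and 41.8% of all *Dab1* UMIs in the cells kept after doublet removal, more than any named class. Among them, one led by *Ntf3*, *Mlip* and *Gprin3* was at 1693 and 1697 CPM. Another, cluster 0, had marker scores for migrating and upper-layer neurons that differed by little (0.764 and 0.755) and held *Dab1* at 923 and 967 CPM, between those classes. The one led by *Tafa1*, *Slit3* and *Sphkap*, with 1057 cells, was at 786 and 827 CPM.

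**Figure D3:**
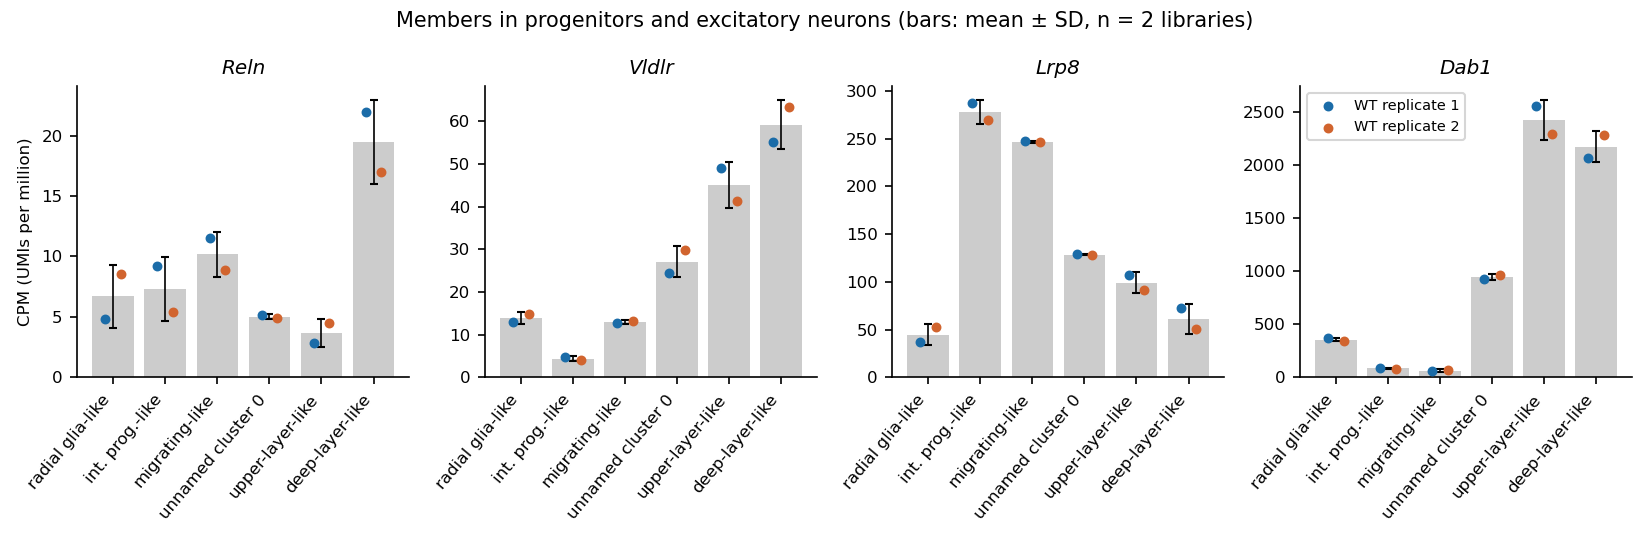
Level (CPM) of the 4 members in progenitors and excitatory neurons, with 1 panel and its own vertical axis for each gene. Grey bars are the mean of both WT libraries with the SD as error bar (n = 2), and points are the libraries. *Dab1* is lowest in intermediate progenitor-like and migrating neuron-like cells, where *Lrp8* is highest, and *Vldlr* is lowest in intermediate progenitor-like cells.

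Among the named classes, *Dab1* was found together with a receptor in the largest share of cells in cortical plate neurons. A UMI of *Dab1* and a UMI of *Vldlr* or *Lrp8* were held by the same cell in 61.7% and 55.9% of upper-layer-like neurons, and in 54.9% and 50.3% of deep-layer-like neurons. The shares were 29.6% and 20.2% in IPC-like, 26.8% and 22.6% in RGC-like and 18.6% and 14.7% in migrating neuron-like cells. In MGE-like interneurons they were 1.37% and 2.03%. All unnamed clusters combined had 40.5% and 36.9% of 1653 and 2701 cells with such a pair. When each cell was thinned to 1500 UMIs, upper-layer-like neurons came to 18.9% and 17.1%, deep-layer-like neurons to 10.1% and 14.8%, IPC-like cells to 3.62% and 3.03%, RGC-like cells to 3.02% and 4.15%, migrating neuron-like cells to 1.67% and 2.43%, and MGE-like interneurons to 0.305% and 0.533%. In replicate 1 the 21 oligodendrocyte precursor-like cells came to 14.3%, so deep-layer-like neurons did not stand above every other class at equal depth. No fibroblast-like or mural-like cell held such a pair, with or without thinning. A receptor UMI, with or without *Dab1*, had another order at 1500 UMIs. It was held by 36.2% and 30.3% of IPC-like and 31.4% and 31.2% of migrating neuron-like cells. In upper-layer-like neurons the shares were 20.9% and 18.8%, and in deep-layer-like neurons 11.2% and 15.8%.

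Which members differ between the known sources of reelin was tested by setting Cajal-Retzius-like cells against the mean of MGE-like and CGE-like interneurons. *Reln* was higher in Cajal-Retzius-like cells by 4.89 ± 0.14 on the log2 scale (SE, edgeR quasi-likelihood test, adjusted p = 3.23e-28). *Dab1* was also higher, by 1.31 ± 0.33 (adjusted p = 0.00271), and *Vldlr* was lower, at -2.25 ± 0.52 (adjusted p = 0.00137). The values of *Lrp8* overlapped and its difference of -0.30 ± 0.35 did not pass (adjusted p = 0.636). Thus 3 of the 4 members were called, where 17.3% of the 14852 genes tested were. The *Dab1* difference depended on the removal of doublets. With doublets kept it was 0.15 (adjusted p = 0.835), and MGE-like interneurons then held *Dab1* at 95.2 and 132 CPM in place of 23.8 and 20.2 CPM. Whether doublets with cortical plate neurons carry that *Dab1* was not tested. At a mitochondrial limit of 5%, where 3 and 21 gated cells were left and this comparison could not be fitted, gated cells held *Dab1* at 51.8 and 82.6 CPM, overlapping with CGE-like interneurons at 60.0 and 80.9 CPM. The scaling moved this comparison as a whole: the median over all genes was -0.27 with the TMM normalization of edgeR and 0.05 with DESeq2, where *Reln* was at 5.10, *Dab1* at 1.51 and *Vldlr* at -2.06, and these 3 calls remained.

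Interneurons were then set against cortical plate neurons, the mean of upper-layer-like and deep-layer-like neurons, as a source of reelin against the cells known to answer it. *Reln* was higher in interneurons by 4.01 ± 0.21 (adjusted p = 1.28e-20), and *Dab1* was lower, at -5.46 ± 0.14 (adjusted p = 1.05e-30). The receptor genes did not pass, with *Vldlr* at -0.24 ± 0.13 (adjusted p = 0.156) and *Lrp8* at -0.11 ± 0.14 (adjusted p = 0.603). In this comparison 33.8% of all genes were called. Between the interneurons, *Dab1* was lower in MGE-like than in CGE-like cells by -2.57 ± 0.26 (adjusted p = 2.24e-10) and *Vldlr* by -0.80 ± 0.20 (adjusted p = 0.00709), while 7.2% of all genes were called. The *Dab1* level of MGE-like cells lay below that of erythroid-like cells, and the part of background in the size of this difference was not tested. The *Dab1* difference was -0.43 (adjusted p = 0.418) with doublets kept, and that of *Vldlr* -0.82 (adjusted p = 0.0852) at a mitochondrial limit of 5%. *Reln* at 0.32 ± 0.20 (adjusted p = 0.478) and *Lrp8* at -0.25 ± 0.22 (adjusted p = 0.660) did not pass.

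*Lrp8* and *Dab1* differed in opposite directions when RGC-like cells were set against IPC-like or migrating neuron-like cells, and when migrating neuron-like cells were set against cortical plate neurons, but not between IPC-like and migrating neuron-like cells. From RGC-like to IPC-like cells *Lrp8* was higher and *Dab1* lower: RGC-like minus IPC-like cells gave -2.67 ± 0.17 for *Lrp8* (adjusted p = 3.48e-17), 2.04 ± 0.17 for *Dab1* (adjusted p = 3.84e-13) and 1.62 ± 0.32 for *Vldlr* (adjusted p = 9.24e-05). These were 3 of the 4 members, where 32.5% of all genes were called. Migrating neuron-like cells against RGC-like cells gave 2.65 ± 0.17 for *Lrp8* (adjusted p = 1.3e-17) and -2.27 ± 0.18 for *Dab1* (adjusted p = 6.81e-15), 2 members where 52.7% of all genes were called. *Vldlr* was at 0.09 ± 0.25 (adjusted p = 0.780).

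Between migrating neuron-like and IPC-like cells, only *Vldlr* passed, higher in the migrating neuron-like cells by 1.71 ± 0.31 (adjusted p = 2.58e-05), where 30.3% of all genes were called. *Lrp8* at -0.02 ± 0.14 (adjusted p = 0.946) and *Dab1* at -0.23 ± 0.19 (adjusted p = 0.402) did not. At a mitochondrial limit of 5% both passed, with *Lrp8* at -0.33 (adjusted p = 0.0124) and *Dab1* at -0.48 (adjusted p = 0.0495). Against cortical plate neurons, migrating neuron-like cells held less *Dab1* (-5.24 ± 0.17, adjusted p = 5.3e-27) and less *Vldlr* (-2.04 ± 0.17, adjusted p = 1.82e-13), and more *Lrp8* (1.60 ± 0.13, adjusted p = 4.18e-14). These 3 members stood beside 40% of all genes. *Reln* did not pass in any of the 4 comparisons of progenitors and excitatory neurons, with adjusted p from 0.150 to 0.925. Its sign changed with the processing, so these comparisons give no direction for it. With the pathway genes allowed in the clustering it was at -1.60 for migrating neuron-like minus IPC-like cells (adjusted p = 0.00457). The median over all genes was 0.02 for migrating neuron-like minus RGC-like cells with edgeR and -0.14 with DESeq2, and 0.05 and 0.15 for RGC-like minus IPC-like cells. The called differences of the members there were 1.62 or more in size.

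**Figure D4:**
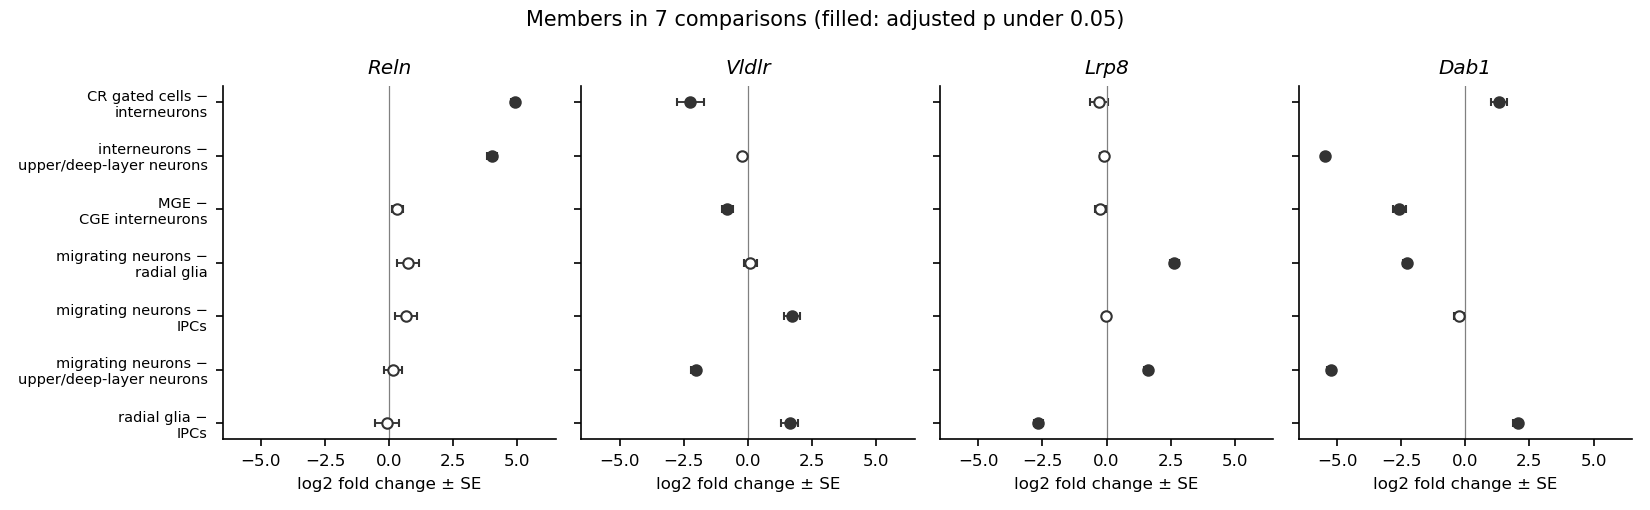
Log2 fold change of each member in 7 comparisons between cell classes (n = 2 libraries). Error bars are an SE derived from the fold change and the F statistic of the edgeR test. Filled points have an adjusted p under 0.05. *Dab1* has the widest range, from -5.46 to 2.04, and *Reln* passed in the comparisons of Cajal-Retzius-like cells with interneurons and of interneurons with cortical plate neurons.

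A list of 46 reelin pathway genes, the 4 members included, was read in the same fits. Of these, 45 were tested. Between Cajal-Retzius-like cells and interneurons, 3 genes of the list were higher and 8 lower, 24.4% of those tested against 17.3% of all genes, with a median log2 difference of -0.30 against -0.27 over all genes. Without the 4 members the share was 19.5%, near that of all genes. *Yes1*, a Src family kinase, was at 6.86 and 10.7 CPM in Cajal-Retzius-like cells and at 55.7 and 54.1 CPM in interneurons (-2.85 ± 0.50, adjusted p = 2.93e-05). *Pik3r1*, a regulatory subunit of PI3 kinase, was also lower (-1.70 ± 0.48, adjusted p = 0.00911). *Fyn*, another Src family kinase, *Gsk3b*, *Cdh2* and *Efnb2* were called lower too, and *Lrpap1*, the chaperone of the receptors, was called higher. *Notch1* had no UMI in Cajal-Retzius-like cells of either library against 10.9 and 13.9 CPM in interneurons. In Cajal-Retzius-like cells *Vldlr*, at 13.7 and 10.7 CPM, rested on 2 and 3 UMIs. The levels of *Yes1*, *Pik3r1* and *Notch1* in these cells thus rest on few UMIs too.

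Interneurons differed from cortical plate neurons in 12 genes that were higher and 14 that were lower, 57.8% of those tested against 33.8% of all genes. *Adamts3*, a protease that cleaves and inactivates reelin, was at 54.8 and 43.6 CPM in interneurons and at 155 and 170 CPM in cortical plate neurons (-2.93 ± 0.13, adjusted p = 3.57e-22). It also differed within the interneurons, with 5.09 and 3.75 CPM in MGE-like against 105 and 83.4 CPM in CGE-like cells (-4.36 ± 0.26, adjusted p = 2.15e-17). *Nrp1*, a coreceptor reported to act with VLDLR, was lower in interneurons than in cortical plate neurons (-2.08 ± 0.15, adjusted p = 1.39e-15), and *Notch1* was higher (2.12 ± 0.33, adjusted p = 1.13e-06). All 3 Src family kinases of the list, *Fyn*, *Src* and *Yes1*, were higher in interneurons. Between MGE-like and CGE-like cells 1 gene was higher, *Thbs1*, and 7 were lower, 17.8% of those tested against 7.2% of all genes, among them *Pik3r1* (-1.91 ± 0.21, adjusted p = 1.45e-09) and *Notch1* (-1.49 ± 0.38, adjusted p = 0.00704).

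Migrating neuron-like cells had 18 genes of the list higher and 14 lower than RGC-like cells, 71.1% of those tested against 52.7% of all genes. *Nrp1* was at 494 and 500 CPM in migrating neuron-like cells and at 11.7 and 14.9 CPM in RGC-like cells (5.39 ± 0.20, adjusted p = 2.76e-25). *Adamts2*, another protease that cleaves reelin, was at 39.6 and 44.8 CPM against 1.21 and 4.57 CPM (3.93 ± 0.34, adjusted p = 4.6e-13). In the other direction, *Notch1* (-5.02 ± 0.21, adjusted p = 1.81e-23) and the alternative ligands of the receptors *Clu* (-4.98 ± 0.34, adjusted p = 3.77e-16) and *Apoe* (-4.47 ± 0.25, adjusted p = 1.32e-19) were higher in RGC-like cells. *Apoe* was at 833 and 1024 CPM there.

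The same RGC-like cells stood apart from IPC-like cells in *Thbs1* (3.97 ± 0.65, adjusted p = 4.86e-06), *Apoe* (3.95 ± 0.24, adjusted p = 8.08e-18), *Clu* (3.95 ± 0.31, adjusted p = 6.65e-14), *Adamts3* (3.0 ± 0.19, adjusted p = 3.44e-17) and *Plat* (3.0 ± 0.34, adjusted p = 1.38e-09), the last of these the gene of tissue plasminogen activator. In that comparison 14 genes of the list were higher and 7 lower, 46.7% of those tested against 32.5% of all genes. All 3 alternative ligands were thus higher in RGC-like cells than in IPC-like and than in migrating neuron-like cells.

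Migrating neuron-like cells had 16 genes higher and 3 lower than IPC-like cells, 42.2% of those tested against 30.3% of all genes, with a median of 0.36 against 0.08 over all genes. *Nrp1* (3.99 ± 0.17, adjusted p = 6.09e-22), *Adamts2* (3.21 ± 0.31, adjusted p = 2.85e-11) and *Lrpap1* (1.74 ± 0.14, adjusted p = 3.48e-14) were higher, and *Notch1* lower (-3.83 ± 0.23, adjusted p = 3e-17). Against cortical plate neurons 7 genes were higher and 14 lower, 46.7% of those tested against 40% of all genes. The microtubule-binding proteins *Mapt* (-2.89 ± 0.11, adjusted p = 1.39e-24) and *Map1b* (-2.36 ± 0.13, adjusted p = 2.82e-19) and the protease *Adamts3* (-3.51 ± 0.15, adjusted p = 3.56e-23) were lower in migrating neuron-like cells, and *Adamts2* was higher (2.46 ± 0.28, adjusted p = 1.33e-09). *Adamts2* and *Adamts3* thus differed in direction in this comparison and in that with RGC-like cells.

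**Figure D5:**
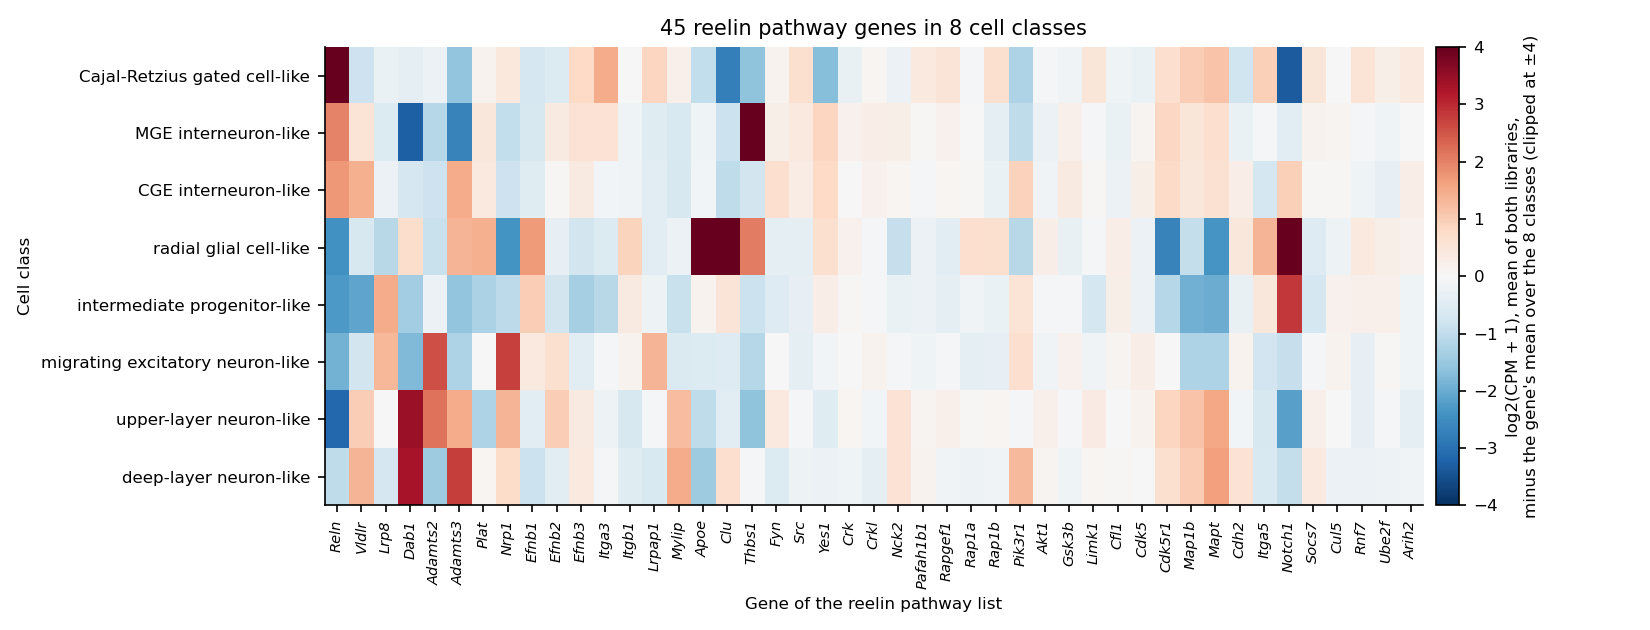
Level of the 45 reelin pathway genes tested (columns) in 8 cell classes (rows), as log2(CPM + 1) averaged over both WT libraries, minus the mean of the gene over the 8 classes. Red is above and blue below that mean, and the colour scale is clipped at 4 in either direction, so *Reln* in Cajal-Retzius-like cells, *Thbs1* in MGE-like interneurons and *Apoe*, *Clu* and *Notch1* in radial glial cell-like cells sit at its upper end.

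Which genes go with *Reln* inside the MGE-like class was read by setting its cells with at least 1 *Reln* UMI against those with none, on sums per library. There were 113 positive and 543 negative cells in replicate 1, and 158 and 780 in replicate 2. *Reln* chose the cells and is no result. Positive cells were somewhat deeper, with a median of 3320 and 3427 UMIs against 2978 and 3241 UMIs, and a negative cell can hold *Reln* RNA that was not captured. Of positive cells 85.0% and 90.5% lay in the *Reln*-rich cluster, against 45.9% and 50.3% of negative cells. In this comparison 576 genes were higher and 362 lower in positive cells, 8.83% of the 10627 tested. The number and the split depended on the method: without the filter on low counts 448 were higher and 466 lower, DESeq2 called 229 genes, of which 186 were higher and 43 lower, edgeR without the library block called 359, and within the rich cluster alone, a comparison chosen after seeing the data, 463 were called, of which 378 were shared.

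The genes with the largest increase were *Gm10475* (4.83 ± 0.51, adjusted p = 3.73e-19), *P3h2*, a collagen prolyl hydroxylase (4.50 ± 0.58, adjusted p = 9.89e-13), *Col19a1*, a collagen chain (4.2 ± 0.32, adjusted p = 2.33e-36), *Rasgrf2*, an exchange factor for Ras (4.07 ± 0.64, adjusted p = 1.06e-08), and *Cntn3*, a contactin (3.66 ± 0.36, adjusted p = 3.46e-22). *Col19a1* was at 96.5 and 83.8 CPM in positive and at 5.73 and 3.90 CPM in negative cells. *Gm10475* is a long noncoding RNA that GENCODE M39 places inside *Reln* on the opposite strand, and whether the counting kept the strands apart is not given in the sources used here, so its UMIs may not be told apart from those of *Reln*. The largest decreases were those of *Gm45352* (-3.0 ± 0.78, adjusted p = 0.00254), *Sh3bp4* (-2.84 ± 0.80, adjusted p = 0.00711), *Dach2* (-2.82 ± 0.33, adjusted p = 7.46e-16), *Snx7* (-2.64 ± 0.47, adjusted p = 9.05e-07) and *Sfta3-ps* (-2.47 ± 0.24, adjusted p = 7.03e-22).

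Of the other pathway genes, 38 were tested here and 4 called, or 10.5%, near the 8.83% of all genes, so the count says nothing particular of the list. *Thbs1* was at 96.5 and 82.3 CPM in positive and at 35.4 and 40.0 CPM in negative cells (1.18 ± 0.20, adjusted p = 4.06e-07). *Mapt* (0.60 ± 0.14, adjusted p = 0.000366) and *Lrp8* (0.57 ± 0.19, adjusted p = 0.0389) were higher, and *Gsk3b*, a kinase downstream of DAB1, was lower (-0.41 ± 0.14, adjusted p = 0.0466). *Lrp8* was at 80.4 and 102 CPM in positive and at 58.8 and 63.1 CPM in negative cells, without overlap. It also differed between the MGE-like clusters, at 77.4 and 79.9 CPM in the *Reln*-rich and 50.9 and 58.9 CPM in the *Reln*-poor cluster. Most positive cells lay in the rich cluster, and the part of this cluster difference in the value of *Lrp8* was not tested. *Vldlr* (0.17 ± 0.28, adjusted p = 0.825) and *Dab1* (-1.01 ± 0.42, adjusted p = 0.123) did not pass.

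The genes whose distribution was most like that of each member were taken by Pearson's r of log2(CPM + 1) over 32 sums, 16 classes in 2 libraries, among 13082 other genes. The sums of a library share its depth and its batch, and classes of like cells are not independent, so r is a description. For *Reln* these were *Gm10475* (r = 0.94), *Pnoc* (0.88), which encodes the neuropeptide precursor of nociceptin, *Snhg11* (0.83), *Samd3* (0.83) and *Ecel1* (0.83). For *Vldlr* they were *Ikzf4* (0.90), *Dclk1* (0.89), *Lyrm7* (0.88), the pathway gene *Map1b* (0.88) and *Pdzd4* (0.87). For *Lrp8* they were *Gfod2* (0.87), *Lrp8os2* (0.86), a noncoding RNA on the opposite strand of *Lrp8* with the same doubt over the strands, *Ccser1* (0.85), *E330009J07Rik* (0.85) and *Sorbs2* (0.83). For *Dab1* the reelin protease *Adamts3* came first (0.85), before *Gabrb1* (0.83), *Dbpht2* (0.80), *Opcml* (0.80) and *Prr7* (0.79). Over the cells kept, *Lrp8os2* had 1388 UMIs and *Gm10475* 221.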

How the data were processed

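The 2 WT libraries were made with the 10x Genomics 3′ v3.1 kit from papain-dissociated E16.5 cortex. The authors deposited unnormalized UMI counts per gene and barcode. They came from Cell Ranger (7.1.0 by the headers, 7.0.0 by the submitters' processing notes) with the mm10 genome. The annotation release and the strand setting are not given in the sources used here. The files held 9049 and 13556 barcodes with 46398156 and 64324236 UMIs. Barcodes with 1500 to 60000 UMIs and under 10% mitochondrial UMIs were kept (65.9% and 75.6%), and the 432 and 1111 with the highest Scrublet scores in each library were removed as doublets. Cells were clustered with scanpy 1.11.5 and leidenalg 0.10.2 on 2000 variable genes without the 46 pathway genes, mitochondrial, ribosomal, globin and sex-linked genes, after regression of cell cycle scores, with 30 principal components, 20 neighbours and resolution 1. A cluster was named where at least 3 markers of 1 of 21 lists led it with a mean score of at least 1, and its 10 leading genes, among those in at least 25% of its cells, held no more markers of another list. This naming rule was set after the clusters were seen.

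UMIs were summed per class and library. All classes of 20 or more cells per library entered 1 edgeR 4.0.16 quasi-likelihood fit (R 4.3.3, TMM, library as a block, genes reaching 10 counts in 2 or more sums), with p-values adjusted by Benjamini-Hochberg over all genes and a threshold of 0.05. The block is the library that both classes of a comparison come from. The fit was also run on simulated counts with changes placed in well-counted genes only, and the outcome is not used here. *Reln*-positive and negative cells were fitted apart on 4 sums, which leave few residual degrees of freedom for the spread. Alternatives were DESeq2 1.42.0, no filter, no block, each library left out, doublets kept, other clusterings, gates and limits. Pathway genes named are the 5 called with the largest fold change per comparison at 10 CPM or more and with 1 direction in both libraries, and others were named after their values were seen. Members and lists were chosen with earlier results of these data known. Precision is limited by the UMIs of a class, and intervals cover counting error only.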

Additional observations from a re-analysis of the deposited data

How the results depend on the processing

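Of 280 fold changes of members under alternatives with a test, 256 kept their direction and their side of the threshold. Left-out libraries, which had no test, were not among the 280. All 70 pathway counts stayed within 1.5 times of the value given. Calls were lost with doublets kept, for *Dab1* in Cajal-Retzius-like cells against interneurons (0.15) and in MGE-like against CGE-like cells (-0.43), and at a mitochondrial limit of 5% for *Vldlr* in the latter (-0.82). The causes were not tested. Calls were gained for migrating neuron-like minus IPC-like cells, for *Dab1* with only the compared classes fitted (-0.32) and at 5% (-0.48), and for *Lrp8* at 5% (-0.33) and with pathway genes in the clustering (-0.40), where *Reln* was also called for RGC-like minus IPC-like cells (-0.93).

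Signs turned only where the value given had not passed. With DESeq2 this was *Vldlr* in migrating neuron-like minus RGC-like cells (-0.080) and *Reln* in RGC-like minus IPC-like cells (0.016). With doublets kept it was *Reln* (-0.15) and *Vldlr* (-0.29) in migrating neuron-like minus RGC-like cells, and *Reln* against IPC-like cells (-0.21) and cortical plate neurons (-0.047). *Reln* in migrating neuron-like cells minus cortical plate neurons was at -0.018 at resolution 0.6, -0.43 without cycle regression, -0.10 at 5% and -1.32 with pathway genes in the clustering. The latter clustering also gave *Reln* at -0.67 against RGC-like and -1.60 against IPC-like cells, and *Dab1* at 0.43 against IPC-like cells. At resolution 0.6 *Reln* was at 0.022 for RGC-like minus IPC-like cells, and at 5% *Reln* was at -0.032 for MGE-like minus CGE-like cells and *Vldlr* at -0.20 for migrating neuron-like minus RGC-like cells.

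Leaving out each library in turn gave *Reln* in interneurons against cortical plate neurons from 3.94 to 4.26 and *Vldlr* in migrating neuron-like cells against them from -2.08 to -2.03. Without the replicate block no member changed its call, with *Reln* at 4.88 for Cajal-Retzius-like cells against interneurons, and 359 genes were called in *Reln*-positive cells. DESeq2 called 229 and the rich cluster alone 463. Thinned to 1500 UMIs, *Reln* was found in 86.7% of gated cells, *Vldlr* in 8.30% of CGE-like, *Lrp8* in 53.6% of endothelial-like and *Dab1* in 93.7% of upper-layer-like cells. *Dab1* in the last was at 1999 CPM at 5%. That limit left 3 gated cells in replicate 1, too few for the comparison of Cajal-Retzius-like cells with interneurons. Where a cluster's leading genes were taken from 10% of its cells, a setting added after seeing the data, RGC-like cells stayed unnamed and their 2 comparisons could not be made. The 50 gated cells limit what can be said of *Vldlr*, *Yes1*, *Pik3r1* and *Notch1* there.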

Other observations

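Oligodendrocyte precursor-like cells were too few in replicate 2 to enter the fit, with 21 cells in replicate 1 and 17 in replicate 2, and held *Dab1* at 295 and 339 CPM. In the unnamed cluster led by *Snhg11*, *Hap1* and *Zic4*, where *Reln* was at 188 and 370 CPM, *Dab1* was at 402 and 350 CPM. The part of IPC-like cells in the cluster led by cell cycle genes held *Lrp8* at 181 and 206 CPM, below the other IPC-like cluster at 332 and 302 CPM, without overlap.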
